A study of Arabidopsis thaliana with 28 samples.

Results

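The 31 genes described here encode enzymes and regulators of tetrapyrrole synthesis in Arabidopsis thaliana, from HEMA1 through the chlorophyll branch to the heme and phytochromobilin branch, with the 3 protochlorophyllide reductase genes (PORA, PORB and PORC) left out. They were picked by locus identifier from the 33557 genes of the deposited expression table, and all 31 passed the filter on low values, set at an average of 1 FPKM across libraries, which left 18678 genes for the tests. FPKM counts sequenced fragments per kilobase of transcript, scaled to the size of the library, so levels of different genes are compared per length. Poly(A) RNA was sequenced from Col-0 (ecotype Columbia) seedlings that had spent 3 days in darkness. One set stayed dark, and the others were then exposed for 15 min, 30 min, 1 h, 3 h, 6 h or 12 h to simulated white light (blue and red LEDs with little far-red, 100 µmol m−2 s−1). Roots were cut off, the tissue was fixed in cold acetone, and cotyledons with the shoot apical meristem were separated from hypocotyls. Each of the 14 groups held 2 biological replicates, A and B, which gives 28 libraries. All groups share the wild-type genotype, the short white-light pulse that starts germination and the dark growth, and light groups were older than dark ones by their time in light, so that light and age cannot be told apart.

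Tetrapyrroles are ring molecules that hold magnesium in chlorophyll and iron in heme. In plants the pathway runs in the plastid. Glutamate bound to its tRNA is turned into 5-aminolevulinic acid (ALA), the rate-limiting step, and ALA is built up to protoporphyrin IX, where magnesium chelatase opens the chlorophyll branch and ferrochelatase the heme branch. Heme is in turn opened to the bilin that phytochrome carries. Free intermediates are toxic in light, and dark-grown seedlings hold the chlorophyll branch at protochlorophyllide, whose reduction needs light.

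CAO, CHLH, GUN4 and CRD1 were the first members to pass the test in light, at 30 min, and the 250 bases before their annotated gene starts are printed to show what sequence lies upstream of the earliest responders. The letters are from RefSeq's TAIR10.1 genome, in gene direction from 5′ to 3′, and capitals mark a G-box (CACGTG, a core bound by bZIP and bHLH factors of light signalling) or a CCA1-binding site (AAAAATCT, bound by a morning clock factor), searched on either strand.
CAO (chr1:16851272-16851521, minus strand): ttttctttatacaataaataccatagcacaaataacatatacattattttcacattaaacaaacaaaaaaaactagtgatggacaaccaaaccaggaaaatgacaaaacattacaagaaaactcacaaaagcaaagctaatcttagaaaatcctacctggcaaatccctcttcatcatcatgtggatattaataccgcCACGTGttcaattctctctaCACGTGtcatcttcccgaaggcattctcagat
CRD1 (chr3:21076255-21076504, plus strand): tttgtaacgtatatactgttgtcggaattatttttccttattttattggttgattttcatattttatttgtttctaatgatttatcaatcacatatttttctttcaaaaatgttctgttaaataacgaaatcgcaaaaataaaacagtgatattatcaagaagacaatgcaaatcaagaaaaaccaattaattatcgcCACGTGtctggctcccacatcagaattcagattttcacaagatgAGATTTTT
GUN4 (chr3:21949797-21950046, minus strand): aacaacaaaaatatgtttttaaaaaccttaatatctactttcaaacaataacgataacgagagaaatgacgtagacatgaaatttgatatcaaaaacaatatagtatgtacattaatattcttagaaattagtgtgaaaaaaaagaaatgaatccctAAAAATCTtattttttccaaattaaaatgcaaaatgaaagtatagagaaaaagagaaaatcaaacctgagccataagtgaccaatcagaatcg
CHLH (chr5:4392430-4392679, minus strand): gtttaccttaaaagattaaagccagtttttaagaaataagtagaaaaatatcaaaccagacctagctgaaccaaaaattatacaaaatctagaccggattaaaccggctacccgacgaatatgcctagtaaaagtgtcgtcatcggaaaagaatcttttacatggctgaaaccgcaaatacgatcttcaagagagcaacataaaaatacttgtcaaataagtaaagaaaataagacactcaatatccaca
CAO holds 2 G-boxes that begin 52 and 32 bases before the start, and CRD1 holds a G-box 52 bases and a CCA1-binding site 8 bases before it. GUN4 holds a CCA1-binding site 93 bases before the start, and CHLH holds neither motif in this window. Among all 31 members, 5 (16.1%) held a G-box in the 250 bases (HEMD, CRD1, CAO, FC2 and HY2), against 6.49% of 27443 protein-coding genes. A CCA1-binding site stood before 5 members (HEMA2, FLU, GUN4, CRD1 and HY2; 16.1%), against 6.69%. The I-box (GATAAG) stood before 3 members (9.68% against 12.3%) and the evening element (AAAATATCT) before 1 (3.23% against 2.36%). A TCP-type site (GGNCCCAC) stood before 1 (3.23% against 1.09%), and the FHY3/FAR1-binding site (CACGCGC) before 0 (1.06% of all genes). With the 50 bases after the start added, the I-box was in 7 members (22.6% against 14.6%), so its standing against all genes depended on the window. In that window the G-box was in 6 (19.4% against 7.68%), the CCA1-binding site in 6 (19.4% against 7.88%) and the TCP-type site in 2 (6.45% against 1.32%). These are letter matches, not sites shown to be bound, and HEMA1 held none of the 6 motifs. No member's matches overlapped.

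Within groups, the Pearson correlation of the replicate libraries was 0.965 to 0.985 on the log2 scale over all genes tested, and low values gave a relative depth of 0.599 to 1.68 between libraries, with about 12 reads per FPKM for each kilobase of exons at average depth. The share of summed FPKM on chloroplast genes was 1.57% to 20.5% in cotyledons (20.5% and 4.23% in the pair at 1 h) and 0.0691% to 0.537% in hypocotyls. The summed FPKM of a cotyledon library was 725438 to 965653 in darkness and up to 1 h, and 1037889 to 1135391 from 3 h on, while hypocotyl libraries spanned 753523 to 853003. The scaling that Cuffnorm applied was not stated in the sources used, so counts for cotyledons against darkness from 3 h on are also given after rescaling. Ratios between tissues are as deposited. The abaxial leaf regulators FIL and YAB3 were at 47.9 to 115 and 66 to 101 FPKM in cotyledons and at most 2.11 and 1.91 in hypocotyls, while AS1, the third gene of that lateral organ list, was at 65.5 to 211 in cotyledons and 19.9 to 49.3 in hypocotyls. CASP1, a gene of the endodermal barrier, was at 0.347 to 2.06 FPKM in cotyledons and 180 to 805 in hypocotyls, and the 6 root markers summed to at most 0.662 FPKM in any library. SCR, of the same endodermis list, was at 17.3 to 41.6 in cotyledons and 21.6 to 31.2 in hypocotyls. KNAT1, on the shoot apex list, was higher in hypocotyls, with 10.6 to 23.7 FPKM in cotyledons and 98.8 to 232 in hypocotyls. The list of 5 apex genes therefore summed to 18.7 to 33.7 and 100 to 235 FPKM. The rest of that list had higher medians in cotyledons. STM was at a median of 6.29 FPKM in cotyledons and 1.18 in hypocotyls, and CUC1 at 1.51 and 0.185. CUC2 was at 1.72 and 0.0573, and CUC3 at 1.48 and 0.186. In whole tissues, fewer cells of a type and less RNA per cell cannot be told apart.

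After hours of light most steps of the pathway were higher in hypocotyls, by up to 46.7-fold, and fewer were in cotyledons. A member was called when its adjusted p (limma, Benjamini-Hochberg over all 18678 genes) was under 0.05 and its change on the log2(FPKM + 1) scale was at least 1. In cotyledons 2 of 31 members were called higher at 30 min, when 1.70% of all genes were. The count was 6 at 1 h (6.56% of all genes), 11 at 3 h (13.1%), 15 at 6 h (16.9%) and 14 at 12 h (15.1%). One member, HEMF2, was called lower there, at 3 h, 6 h and 12 h, when 10.9%, 11% and 8.25% of all genes were. In hypocotyls the counts called higher were 4 at 30 min (1.76%), 9 at 1 h (4.89%), 16 at 3 h (12.4%), 22 at 6 h (14.2%) and 23 at 12 h (16.6%). With the limit of 1 on the change, no hypocotyl count of members called lower was above 0 by limma or by the authors' deposited Cuffdiff table. By adjusted p alone, 1 member was lower at 1 h (GSA1, -0.46) and 1 at 12 h. At an unadjusted p under 0.05 there were 2 lower at 1 h, 1 at 12 h and 0 at the other times. The authors' table gave GSA1 at -0.46 (Cuffdiff q-value 0.0178) and CHLD at -0.40 (Cuffdiff q-value 0.0473) in hypocotyls at 1 h. Of all genes, 0.616%, 1.84%, 3.37%, 8.82%, 11.9% and 14.2% were called lower in hypocotyls at the successive times, and in cotyledons up to 1 h 0.546%, 1.67% and 4.76% were. At 15 min 0 members were called in either tissue by limma and by the authors' deposited table, while 6 in cotyledons and 9 in hypocotyls had an unadjusted p under 0.05 and all of these were higher. In the authors' table CHLH and CAO were at 0.88 and 0.87 in hypocotyls at 15 min. Both had a Cuffdiff q-value of 0.0031 and fell short of the limit on size alone. Of all genes, 0.300% and 0.380% were called higher at 15 min. The median member changed by 0.98 in cotyledons and 1.50 in hypocotyls at 6 h, and by 0.90 and 1.87 at 12 h, while the median of all genes tested lay between 0.01 and 0.04. The 6 times of a tissue share its 2 dark libraries, so their counts are not independent.

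Without the limit on size, by adjusted p alone and in either direction, more members passed, and so did more of all genes (given in parentheses). In cotyledons the numbers from 15 min to 12 h were 1 (3.12%), 6 (12.1%), 13 (39.7%), 23 (62.1%), 26 (65.9%) and 27 (61.3%). In hypocotyls they were 5 (3.53%), 8 (11.2%), 15 (24.9%), 26 (52.9%), 28 (60.4%) and 28 (67.6%). For the step from 1 h to 3 h they were 16 (46.6%) in cotyledons and 27 (39%) in hypocotyls, and from 6 h to 12 h 9 (28.1%) and 11 (27.2%). For the difference between tissues in the response they were 0 (0.862%), 5 (5.13%), 9 (26.6%), 17 (55.5%), 24 (63.3%) and 25 (60.4%) from 15 min to 12 h. The limit on size is kept in what follows.

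The cotyledon counts depended on how libraries were scaled. Quantile normalization left 7 members higher and 1 lower at 6 h and 6 higher and 2 lower at 12 h, and giving nuclear genes the same sum in every library left 8 and 2 at 6 h and 6 and 3 at 12 h. At 1 h these splits were 5 and 1, and 4 and 1, and at 3 h they were 7 and 1, and 7 and 3. Rescaling nuclear genes moved the median of all genes by -0.38, -0.52 and -0.52 at 3 h, 6 h and 12 h in cotyledons, and relative to that median the median member stood at 0.48, 0.81 and 0.73, against 0.58, 0.95 and 0.86 as deposited. The 6 members called higher in cotyledons at 6 h under all 3 scalings were CHLH, GUN4, CRD1, DVR, CAO and FC2. In hypocotyls all 22 members at 6 h and all 23 at 12 h were called under the 3 scalings.

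**Figure D1:**
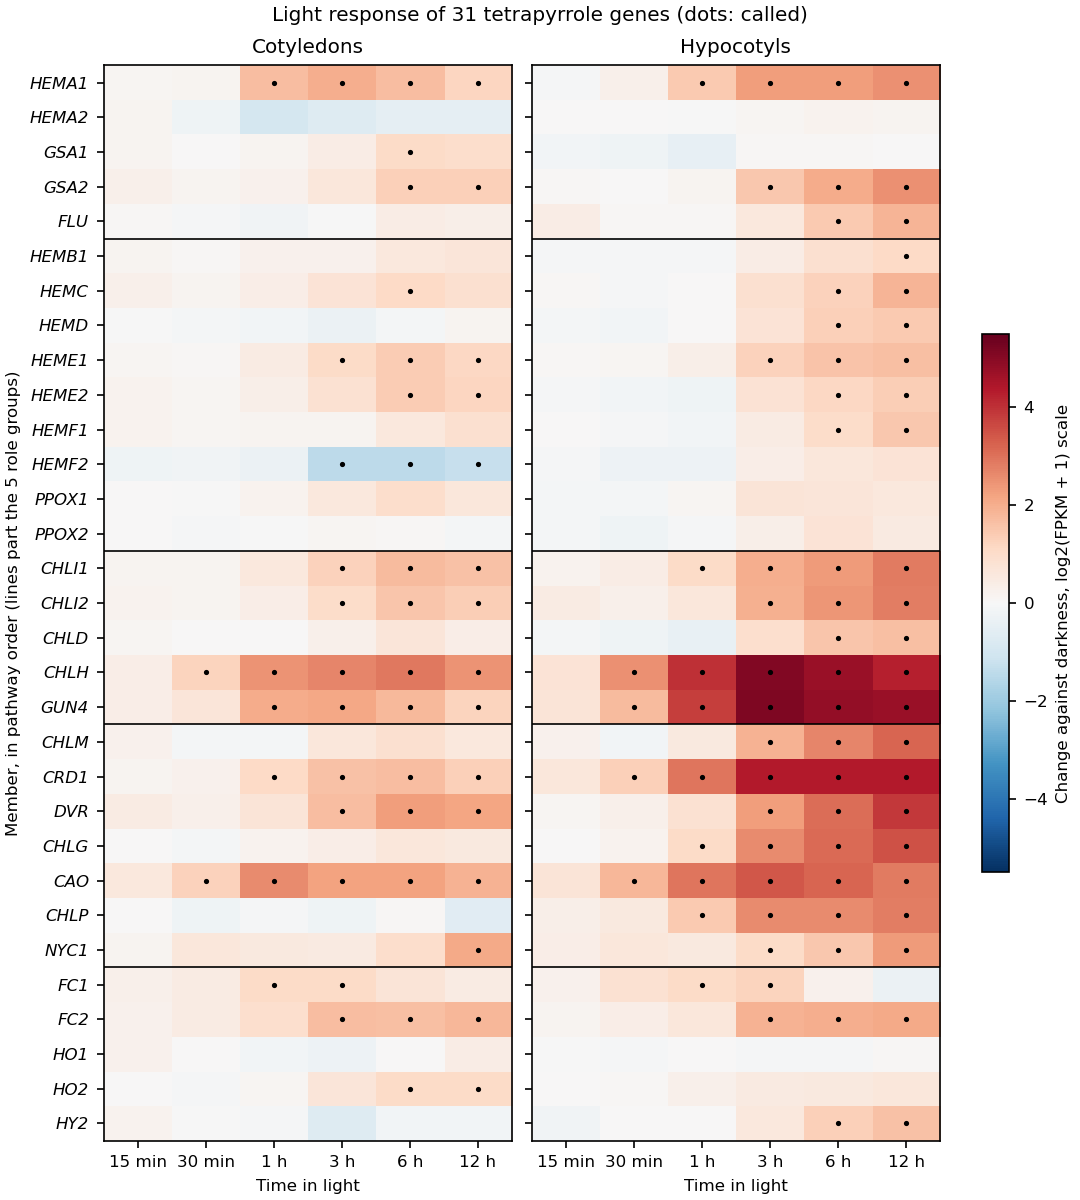
Change of each of the 31 members against darkness on the log2(FPKM + 1) scale at 6 times in light (columns) in cotyledons and hypocotyls, with dots on called changes and lines between role groups. CHLH, GUN4 and CRD1 reach 5.10, 5.12 and 4.34 in hypocotyls at 3 h, and HEMF2 is at -1.46 in cotyledons at 6 h.

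The earliest calls were in the chlorophyll branch and its chelatase. CAO, which makes chlorophyll b from chlorophyll a, and CHLH, the porphyrin-binding subunit of magnesium chelatase, were called in both tissues at 30 min, and GUN4 and CRD1 were called in hypocotyls alone (their changes in cotyledons were 0.66 and 0.25). CAO stood at 35.3 and 40.3 FPKM in darkness, 54 and 59.2 after 15 min, then 87.8 and 97.4 after 30 min in cotyledons and at 4.61 and 5.29 FPKM in darkness, 9.24 and 8.51 after 15 min, then 20.7 and 19.5 after 30 min in hypocotyls. CHLH stood at 124 and 171 FPKM in darkness, 180 and 200 after 15 min, then 318 and 371 after 30 min in cotyledons and at 6.98 and 6.97 FPKM in darkness, 13 and 12.1 after 15 min, then 44.1 and 44.4 after 30 min in hypocotyls. For both genes in both tissues, each library at 15 min was already above each dark library and each at 30 min above each at 15 min. With the limit on size, 15 min was not called. At 1 h HEMA1, GUN4, CRD1 and FC1 had joined in both tissues, and all 6 members called in cotyledons were among the 9 of hypocotyls, which also held CHLI1, CHLG and CHLP. Without replicate B at 1 h CHLI1 was at 1.00, just under the limit, and without dark replicate A CHLG was at 0.94. At 3 h all 11 members called higher in cotyledons were among the 16 of hypocotyls. At 6 h 13 of 15 were shared and GSA1 and HO2 were called in cotyledons alone, and at 12 h 13 of 14 were shared and HO2 was alone. Over all times 18 members were called at least once in cotyledons and 24 in hypocotyls. HEMA2, PPOX1, PPOX2 and HO1 were called at no time in either tissue.

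**Figure D2:**
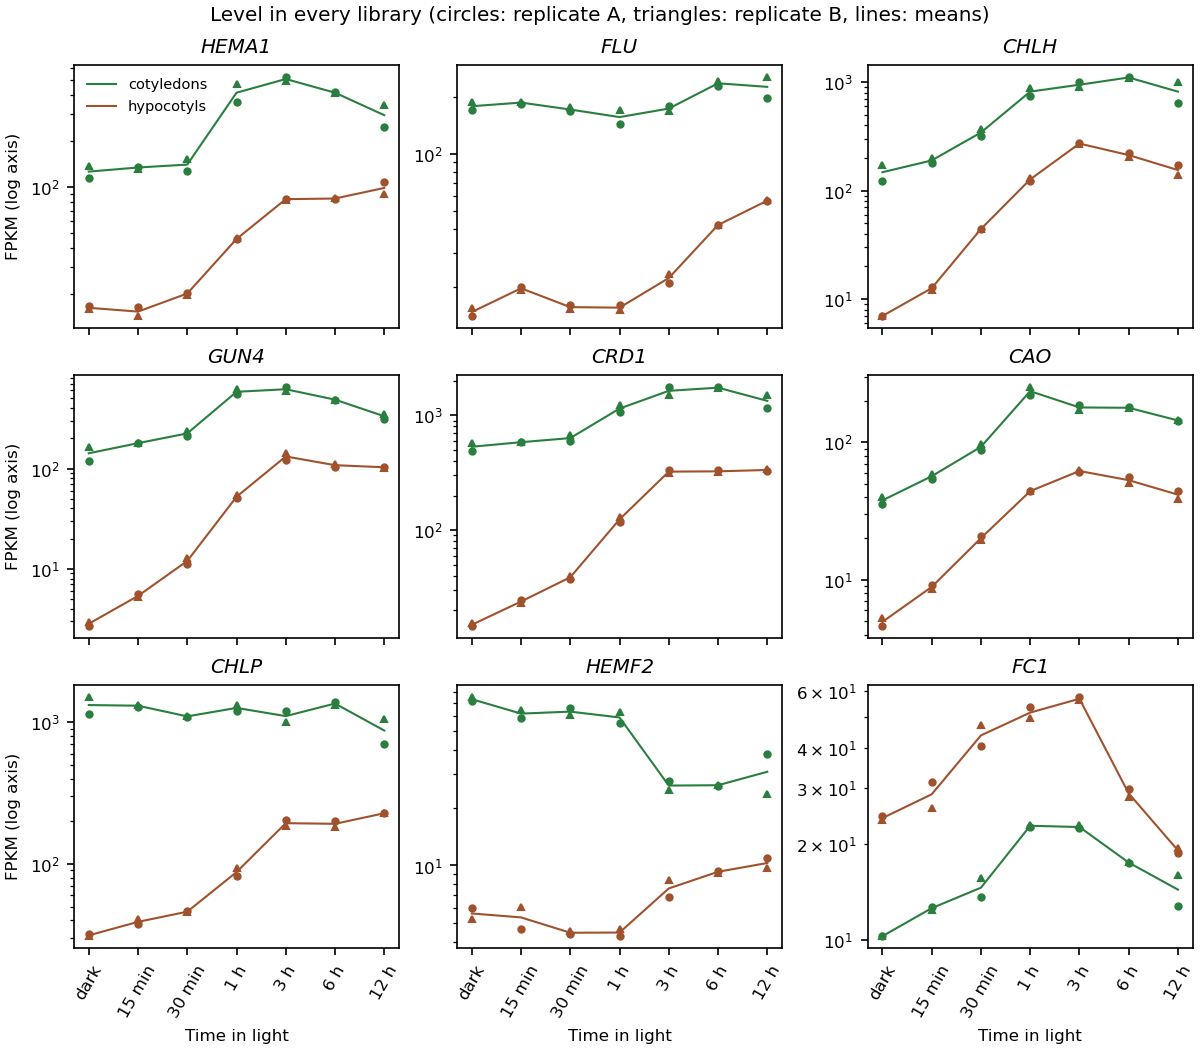
FPKM (log axis) of 9 members in every library against time in light, with circles for replicate A, triangles for replicate B and lines through group means in cotyledons and hypocotyls. CHLH and CAO climb at 15 min and 30 min in both tissues, HEMA1 steps up between 30 min and 1 h, CHLP climbs from 31.3 to 228 FPKM in hypocotyls while its cotyledon means lie between 875 and 1357, and FC1 returns toward its dark level by 12 h.

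Synthesis of ALA holds 5 members: glutamyl-tRNA reductase (HEMA1 and HEMA2), the aminotransferase that follows it (GSA1 and GSA2) and FLU, which inhibits the reductase in darkness. Of these, 3 were called higher in cotyledons at 6 h (HEMA1, GSA1 and GSA2) and 3 in hypocotyls at 12 h (HEMA1, GSA2 and FLU). HEMA1 (AT1G58290, chr1:21623700-21626402, minus strand on TAIR10.1), the main reductase of green tissue, stood in cotyledon replicates A and B at 114 and 138 FPKM in darkness, 358 and 466 after 1 h, 416 and 409 after 6 h, then 247 and 340 after 12 h. In hypocotyls, HEMA1 stood at 16.8 and 15.9 FPKM in darkness, 45.5 and 46.2 after 1 h, 83 and 85.3 after 6 h, then 107 and 90.1 after 12 h. The groups from 1 h on did not overlap darkness in either tissue, and cotyledon levels had come down from their peak at 3 h (506 ± 19.8 FPKM, SD, n = 2). At 1 h HEMA1 rose 3.27-fold in cotyledons (log2 change 1.69, SE 0.14, adjusted p = 4.34e-09) and 2.81-fold in hypocotyls (log2 change 1.44, SE 0.14, adjusted p = 6.90e-08). At 12 h it was 2.33-fold and 6.05-fold above darkness. The cotyledon call at 12 h (log2 change 1.20, SE 0.14, adjusted p = 3.00e-07) was lost at 0.66 under quantile normalization, 0.63 with nuclear genes rescaled and 0.97 without replicate B at 12 h. HEMA2, the minor reductase, went from 24.8 ± 1.65 to 12.3 ± 1.25 FPKM in cotyledons at 1 h, a change of -0.96 that had an adjusted p of 1.30e-07 but missed the limit of 1. HEMA2 was called lower at 1 h under quantile normalization (-1.0), with nuclear genes rescaled (-1.08), with a pseudocount of 0.1 FPKM (-1.01), in the authors' deposited table (-1.01), without dark replicate A (-1.03) and without replicate A at 1 h (-1.06). With nuclear genes rescaled it was also called lower at 3 h (-1.08), 6 h (-1.04) and 12 h (-1.05), against -0.69, -0.50 and -0.51 as deposited. Its hypocotyl means lay between 9.36 and 11.1 FPKM at all 7 times. Loci of ALA synthesis are AT1G58290 for HEMA1, AT1G09940 for HEMA2, AT5G63570 for GSA1, AT3G48730 for GSA2 and AT3G14110 for FLU.

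GSA1 stood in cotyledons at 71.5 and 83.2 FPKM in darkness, 77 and 98.1 after 1 h, 158 and 166 after 6 h, then 119 and 192 after 12 h. For hypocotyls, GSA1 libraries gave 41 and 39.5 FPKM in darkness, 28 and 29.7 after 1 h, 43.2 and 41.9 after 6 h, then 42.6 and 40.3 after 12 h. Cotyledon libraries at 6 h and 12 h lay above darkness, and hypocotyl libraries at 6 h and 12 h were between 40.3 and 43.2 FPKM. The hypocotyl pair at 1 h lay below darkness, and its change of -0.46 passed the adjusted p but not the limit on size. GSA1 was called in cotyledons at 6 h (log2 change 1.06, SE 0.15, adjusted p = 3.78e-06), a call lost without dark replicate A (0.95), under quantile normalization (0.69) and with nuclear genes rescaled (0.49). GSA2 rose in both tissues, from 97.9 ± 9.74 to 241 ± 6.18 FPKM in cotyledons at 6 h (log2 change 1.29, SE 0.14, adjusted p = 9.62e-08; 0.79 and 0.73 under the other scalings) and from 11.5 ± 0.777 to 69.8 ± 0.915 in hypocotyls at 12 h (log2 change 2.51, SE 0.14, adjusted p = 2.48e-12). FLU stood in cotyledons at 169 and 187 FPKM in darkness, 143 and 170 after 1 h, 228 and 242 after 6 h, then 197 and 253 after 12 h. Hypocotyl FLU pairs were at 14 and 15.4 FPKM in darkness, 16 and 15 after 1 h, 42.1 and 42.3 after 6 h, then 56.6 and 56.9 after 12 h. In cotyledons the pair at 1 h overlapped darkness and the later pairs lay above it by less than the limit, and in hypocotyls the pairs at 6 h and 12 h lay far above. FLU was called in hypocotyls at 6 h (log2 change 1.46, SE 0.11, adjusted p = 1.89e-10) and 12 h (log2 change 1.88, SE 0.11, adjusted p = 2.78e-12), later than HEMA1, which was called there at 1 h. Without the limit on size, FLU also passed the adjusted p in hypocotyls at 15 min (0.40) and 3 h (0.56). The order of FLU and HEMA1 thus depends on that limit and was not tested. FLU overlaps AT3G14100 on the other strand, which was at 43.4 to 112 FPKM in cotyledons and 64.2 to 82.2 in hypocotyls.

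The porphyrin trunk, from ALA to protoporphyrin IX, holds 9 members, of which 3 were called higher and 1 lower in cotyledons at 6 h (median 0.60) and 6 higher in hypocotyls at 12 h (median 1.37). HEMB1, the ALA dehydratase, stood in cotyledons at 127 and 140 FPKM in darkness, 136 and 181 after 1 h, 201 and 200 after 6 h, then 173 and 257 after 12 h. In hypocotyls, HEMB1 stood at 35.4 and 34.1 FPKM in darkness, 32.8 and 32.6 after 1 h, 65.1 and 63.7 after 6 h, then 74.8 and 77.8 after 12 h. Each tissue's pairs at 6 h and 12 h lay above darkness, and HEMB1 was called in hypocotyls at 12 h alone (log2 change 1.11, SE 0.14, adjusted p = 5.69e-07). HEMC, porphobilinogen deaminase, stood in cotyledons at 240 and 262 FPKM in darkness, 303 and 343 after 1 h, 534 and 536 after 6 h, then 382 and 571 after 12 h. For hypocotyls, HEMC libraries gave 37.2 and 36.5 FPKM in darkness, 36.4 and 38.4 after 1 h, 93.8 and 85.5 after 6 h, then 128 and 146 after 12 h. The pair at 1 h overlapped darkness in hypocotyls alone. HEMC was called in cotyledons at 6 h (log2 change 1.09, SE 0.13, adjusted p = 3.44e-07; 0.33 and 0.52 under the other scalings) and in hypocotyls at 12 h (log2 change 1.87, SE 0.13, adjusted p = 8.28e-11). HEMD, uroporphyrinogen III synthase, stood in cotyledons at 38.1 and 38 FPKM in darkness, 30.2 and 37.8 after 1 h, 34.7 and 36.2 after 6 h, then 35.2 and 50.6 after 12 h. Hypocotyl HEMD pairs were at 6.83 and 6.86 FPKM in darkness, 6.96 and 6.84 after 1 h, 20.8 and 16.5 after 6 h, then 19.9 and 20.2 after 12 h. Cotyledon pairs at 1 h and 6 h lay just below the dark pair and the pair at 12 h straddled it, whereas hypocotyl pairs at 6 h and 12 h were above darkness. HEMD was called in hypocotyls at 6 h (log2 change 1.32, SE 0.14, adjusted p = 7.36e-08) and 12 h (log2 change 1.43, SE 0.14, adjusted p = 1.93e-08). Trunk loci are AT1G69740 for HEMB1, AT5G08280 for HEMC, AT2G26540 for HEMD, AT3G14930 for HEME1, AT2G40490 for HEME2, AT1G03475 for HEMF1, AT4G03205 for HEMF2, AT4G01690 for PPOX1 and AT5G14220 for PPOX2.

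The paired trunk steps are uroporphyrinogen decarboxylase (HEME1 and HEME2), coproporphyrinogen oxidase (HEMF1 and HEMF2) and protoporphyrinogen oxidase (PPOX1 and PPOX2). HEME1 went from 120 ± 29.6 to 310 ± 12.9 FPKM in cotyledons at 6 h (log2 change 1.38, SE 0.14, adjusted p = 5.43e-08; 0.77 and 0.81 under the other scalings) and from 13 ± 0.154 to 43.6 ± 5.88 in hypocotyls at 12 h (log2 change 1.66, SE 0.14, adjusted p = 2.65e-09). HEME2 stood in cotyledons at 131 and 150 FPKM in darkness, 158 and 195 after 1 h, 373 and 376 after 6 h, then 277 and 378 after 12 h. In hypocotyls, HEME2 stood at 25.5 and 24 FPKM in darkness, 19.2 and 22.8 after 1 h, 55.5 and 56.8 after 6 h, then 72.9 and 58.6 after 12 h. In hypocotyls the pair at 1 h was below darkness and the later pairs above it. HEME2 was called in cotyledons at 6 h (log2 change 1.41, SE 0.13, adjusted p = 1.21e-08; 0.71 and 0.84 under the other scalings) and in hypocotyls at 12 h (log2 change 1.37, SE 0.13, adjusted p = 1.48e-08). HEMF1 stood in cotyledons at 153 and 167 FPKM in darkness, 160 and 191 after 1 h, 241 and 245 after 6 h, then 242 and 348 after 12 h. For hypocotyls, HEMF1 libraries gave 34.8 and 35.1 FPKM in darkness, 30.9 and 31.6 after 1 h, 72.9 and 70 after 6 h, then 96.3 and 104 after 12 h. The pairs at 6 h and 12 h lay above darkness in both tissues, and hypocotyls were called (log2 change 1.01, SE 0.12, adjusted p = 4.38e-07 at 6 h, lost at 0.98 without replicate A at 6 h; 1.49 at 12 h). HEMF2 was called lower, and its cotyledon libraries stood at 71.9 and 75.3 FPKM in darkness, 55.3 and 62.8 after 1 h, 26.1 and 26.3 after 6 h, then 38.1 and 23.5 after 12 h. The pair at 3 h, 27.5 and 24.7 FPKM, lay below every cotyledon library of the earlier times, and every later library but replicate A at 12 h was under 27.5. The call was made at 3 h (log2 change -1.46, SE 0.16, adjusted p = 7.98e-08), 6 h (log2 change -1.46, SE 0.16, adjusted p = 7.43e-08) and 12 h (log2 change -1.27, SE 0.16, adjusted p = 6.28e-07), and without replicate B at 12 h the last was -0.93.

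In hypocotyls HEMF2 stood at 5.97 and 5.28 FPKM in darkness, 4.28 and 4.66 after 1 h, 9.38 and 9.16 after 6 h, then 10.9 and 9.73 after 12 h, and the late pairs were above the dark pair. PPOX1 went from 94.9 ± 7.78 to 188 ± 2.28 FPKM in cotyledons at 6 h (0.98, just under the limit) and from 26.4 ± 0.0162 to 44 ± 2.44 in hypocotyls at 3 h (0.71). PPOX2 had cotyledon means of 31.4 to 35.4 FPKM and hypocotyl means of 8.72 to 18.3, with a change of 0.05 and 0.76 at 6 h. PPOX2 shares 8.89% of its 50-nt exon stretches with AT5G14210, which overlaps it on the same strand and was at 28.3 to 52.1 FPKM in cotyledons.

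Magnesium chelatase, which commits protoporphyrin IX to chlorophyll, held the 2 members with the widest hypocotyl folds, GUN4 and CHLH. Its 5 members are the subunits CHLI1, CHLI2, CHLD and CHLH and the porphyrin-binding activator GUN4. Of these, 4 were called higher in cotyledons at 6 h and 5 in hypocotyls (median 1.76 and 2.43). CHLH (AT5G13630, chr5:4387307-4392429, minus strand), the catalytic subunit also known as GUN5, stood in cotyledons at 124 and 171 FPKM in darkness, 751 and 890 after 1 h, 1114 and 1100 after 6 h, then 641 and 998 after 12 h. Hypocotyl CHLH pairs were at 6.98 and 6.97 FPKM in darkness, 123 and 132 after 1 h, 223 and 204 after 6 h, then 171 and 140 after 12 h. All light pairs from 1 h on lay above the dark pair, with no overlap in either tissue. The group mean rose 7.5-fold in cotyledons at 6 h (log2 change 2.92, SE 0.16, adjusted p = 5.36e-12). In hypocotyls it rose 39-fold at 3 h, its peak (272 ± 4.73 FPKM; log2 change 5.10, SE 0.16, adjusted p = 6.90e-16), and was 22.3-fold above darkness at 12 h. GUN4 (AT3G59400, chr3:21948501-21949796, minus strand) stood in cotyledons at 120 and 164 FPKM in darkness, 547 and 617 after 1 h, 485 and 487 after 6 h, then 315 and 350 after 12 h. In hypocotyls, GUN4 stood at 2.69 and 2.99 FPKM in darkness, 50.5 and 54.2 after 1 h, 104 and 112 after 6 h, then 104 and 102 after 12 h. Hypocotyl libraries thus went from 2.69 and 2.99 FPKM to 104 and 102, and no light pair from 1 h on overlapped darkness in either tissue. The rise was 4.34-fold in cotyledons at 3 h (log2 change 2.12, SE 0.12, adjusted p = 8.54e-12) and 46.7-fold in hypocotyls (log2 change 5.12, SE 0.12, adjusted p = 9.04e-18). The cotyledon call at 12 h (1.23) was lost under both other scalings (0.67 in each). AT3G59410 overlaps GUN4 on the other strand and shares 71.9% of its 50-nt exon stretches, and its group means were 6.23 to 11.6 FPKM in cotyledons and 3.47 to 5.44 in hypocotyls. Chelatase loci are AT4G18480 for CHLI1, AT5G45930 for CHLI2, AT1G08520 for CHLD, AT5G13630 for CHLH and AT3G59400 for GUN4.

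CHLI1, the main form of the ATPase subunit I, went from 212 ± 20.5 to 721 ± 14.8 FPKM in cotyledons at 6 h (log2 change 1.76, SE 0.13, adjusted p = 4.10e-10, lost at 0.98 under quantile normalization) and from 16.6 ± 0.237 to 127 ± 3.23 in hypocotyls at 12 h (log2 change 2.85, SE 0.13, adjusted p = 1.10e-13). CHLI2, its copy, went from 44.3 ± 0.547 to 131 ± 4.07 and from 3.31 ± 0.285 to 29.2 ± 0.0684 FPKM at the same times (log2 changes 1.54 and 2.81), and the first was 0.98 with nuclear genes rescaled. AT5G45940 overlaps CHLI2 on the other strand and shares 6.27% of its 50-nt exon stretches. In hypocotyls it was at 41.7 FPKM in darkness, above CHLI2, and at 35 at 12 h. CHLD, subunit D, went less far, with 137 ± 21.7 to 215 ± 4.1 FPKM in cotyledons (0.65, not called) and 20.7 ± 0.00141 to 67.9 ± 3.44 in hypocotyls at 12 h (log2 change 1.67, SE 0.16, adjusted p = 9.65e-09). At 1 h, when CHLH had gone up in hypocotyls by 4.01, CHLD was at -0.40 (adjusted p = 0.0731). In hypocotyls in darkness the 3 subunits H, D and I1 stood at 6.98, 20.7 and 16.6 FPKM, and at 3 h they stood at 272, 39.6 and 69.7, so that CHLH passed from the lowest to the highest of the 3 per length.

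The 7 members of the chlorophyll branch after the chelatase were all called higher in hypocotyls at 3 h, 6 h and 12 h (NYC1 at 3 h was lost at 0.96 without replicate B and at 0.92 under quantile normalization), and 3 of 7 in cotyledons at 6 h (CRD1, DVR and CAO). CRD1, a subunit of the cyclase that closes the extra ring of chlorophyll, stood in cotyledons at 489 and 576 FPKM in darkness, 1069 and 1218 after 1 h, 1754 and 1724 after 6 h, then 1161 and 1510 after 12 h. For hypocotyls, CRD1 libraries gave 14.6 and 15.4 FPKM in darkness, 117 and 131 after 1 h, 331 and 319 after 6 h, then 327 and 340 after 12 h. Every light pair from 1 h on lay above the dark pair in both tissues. It rose 3.27-fold in cotyledons at 6 h (log2 change 1.71, SE 0.12, adjusted p = 1.13e-10) and 22.2-fold in hypocotyls at 12 h (log2 change 4.38, SE 0.12, adjusted p = 3.34e-17). The cotyledon call at 1 h (1.10) was lost at 0.99 without dark replicate A, 0.84 under quantile normalization and 0.98 with nuclear genes rescaled. AT3G56950 overlaps CRD1 on the other strand and shares 7.85% of its 50-nt exon stretches. In hypocotyls it was at 48.8 FPKM in darkness, above CRD1, and at 29.9 at 12 h. DVR, which reduces the remaining extra vinyl group of the divinyl intermediates, stood in cotyledons at 44 and 51.7 FPKM in darkness, 72.6 and 87.8 after 1 h, 242 and 235 after 6 h, then 175 and 273 after 12 h. Hypocotyl DVR pairs were at 2.34 and 1.9 FPKM in darkness, 3.99 and 5.2 after 1 h, 26.8 and 23.2 after 6 h, then 43 and 47.3 after 12 h. Light pairs from 1 h on did not overlap darkness, and hypocotyl levels at 12 h were above those at 6 h. DVR rose 4.99-fold in cotyledons at 6 h (log2 change 2.30, SE 0.18, adjusted p = 5.91e-10) and 21.3-fold in hypocotyls at 12 h (log2 change 3.89, SE 0.18, adjusted p = 8.16e-14). CAO (AT1G44446, chr1:16848308-16851271, minus strand) stood in cotyledons at 35.3 and 40.3 FPKM in darkness, 219 and 251 after 1 h, 179 and 177 after 6 h, then 143 and 145 after 12 h. In hypocotyls, CAO stood at 4.61 and 5.29 FPKM in darkness, 44 and 44.3 after 1 h, 55.6 and 50.3 after 6 h, then 44.2 and 39 after 12 h. Cotyledon levels peaked at 1 h and hypocotyl levels at 3 h (61.8 ± 1.31 FPKM). The cotyledon rise at 1 h was 6.22-fold (log2 change 2.60, SE 0.10, adjusted p = 3.62e-14) and the hypocotyl rise at 3 h 12.5-fold (log2 change 3.40, SE 0.10, adjusted p = 1.94e-16). Loci of the branch are AT4G25080 for CHLM, AT3G56940 for CRD1, AT5G18660 for DVR, AT3G51820 for CHLG, AT1G44446 for CAO, AT1G74470 for CHLP and AT4G13250 for NYC1.

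CHLG, the synthase that joins the phytyl tail to chlorophyllide, stood in cotyledons at 112 and 134 FPKM in darkness, 122 and 158 after 1 h, 188 and 190 after 6 h, then 151 and 211 after 12 h. For hypocotyls, CHLG libraries gave 3.29 and 4.13 FPKM in darkness, 8.5 and 9.12 after 1 h, 40.9 and 38.4 after 6 h, then 52.5 and 50.7 after 12 h. The cotyledon pair at 1 h overlapped darkness, and the hypocotyl pairs did not from 1 h on. The hypocotyl rise was 13.9-fold at 12 h (log2 change 3.49, SE 0.17, adjusted p = 1.55e-13), and the cotyledon change at 6 h, 0.62, was not called. CHLP, the geranylgeranyl reductase that makes the phytyl tail, stood in cotyledons at 1146 and 1502 FPKM in darkness, 1194 and 1335 after 1 h, 1393 and 1321 after 6 h, then 699 and 1050 after 12 h. Hypocotyl CHLP pairs were at 31.8 and 30.9 FPKM in darkness, 82.3 and 93 after 1 h, 202 and 183 after 6 h, then 228 and 228 after 12 h. In cotyledons CHLP was the most abundant member in darkness per length, its pairs at 1 h and 6 h lay within the dark pair, and its pair at 12 h lay below it by less than the limit (log2 change -0.61, SE 0.15, adjusted p = 0.00127). Under quantile normalization that change was -1.34 and with nuclear genes rescaled -1.19, and CHLP was called lower under both. In hypocotyls it rose 7.27-fold at 12 h (log2 change 2.82, SE 0.15, adjusted p = 7.87e-13). AT1G74480 overlaps CHLP on the other strand with at most 1.29 FPKM in any group. CHLM, the methyltransferase after the chelatase, went from 350 ± 24.1 to 645 ± 12.7 FPKM in cotyledons (0.88, not called) and from 19.9 ± 2.38 to 193 ± 15.6 in hypocotyls at 12 h (log2 change 3.22, SE 0.11, adjusted p = 8.75e-16). NYC1, a chlorophyll b reductase that opposes CAO, was called in cotyledons at 12 h alone and in hypocotyls from 3 h on. Cotyledon means were 67.4 ± 2.54 FPKM in darkness, 133 ± 5.56 at 6 h and 296 ± 71.1 after 12 h of light (log2 change 2.1, SE 0.14, adjusted p = 1.45e-10). Hypocotyl means were 12.3 ± 0.102 FPKM in darkness and 66.8 ± 5.7 after 12 h of light (log2 change 2.35, SE 0.14, adjusted p = 1.07e-11). Without the limit on size, NYC1 already passed the adjusted p at 30 min in cotyledons (0.63) and hypocotyls (0.64).

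The heme and bilin branch, 5 members, had the lowest median change of the 5 role groups at 12 h, 0.43 in cotyledons and 0.63 in hypocotyls. Of these, 2 were called higher in each tissue at 12 h, FC2 and HO2 in cotyledons and FC2 and HY2 in hypocotyls. FC1, the ferrochelatase with the wider tissue range, stood in cotyledons at 10.3 and 10.3 FPKM in darkness, 22.6 and 22.9 after 1 h, 17.4 and 17.6 after 6 h, then 12.8 and 16 after 12 h. In hypocotyls, FC1 stood at 24.4 and 23.7 FPKM in darkness, 53.7 and 49.4 after 1 h, 29.7 and 28 after 6 h, then 18.8 and 19.5 after 12 h. In both tissues the pair at 1 h was the highest of these times, and at 12 h the cotyledon pair lay above the dark pair and the hypocotyl pair below it. Over all times the hypocotyl mean was highest at 3 h, at 56.9 FPKM (2.36-fold). FC1 rose 2.21-fold in cotyledons (log2 change 1.07, SE 0.10, adjusted p = 5.40e-08; 0.96 with nuclear genes rescaled) and 2.14-fold in hypocotyls (log2 change 1.06, SE 0.10, adjusted p = 8.06e-08) at 1 h. Its changes at 12 h were 0.43 and -0.32. FC1 overlaps AT5G26038 and AT5G26040, 1 on the same strand and 1 on the other, and shares 4.62% of its 50-nt exon stretches with AT5G26038. Group means of AT5G26038 were 13.6 to 62.6 FPKM in cotyledons, where FC1 means were 10.3 to 22.8. In hypocotyls they were 23.5 to 95.4 FPKM. In darkness AT5G26038 was at 13.6 FPKM in cotyledons and 39.4 in hypocotyls, and at 3 h at 36.7 and 62.1. FC2, the ferrochelatase of green tissue, went from 33.6 ± 3.48 to 124 ± 22 FPKM in cotyledons at 12 h (log2 change 1.84, SE 0.12, adjusted p = 3.55e-11) and from 7.05 ± 0.235 to 33.3 ± 1.67 in hypocotyls (log2 change 2.09, SE 0.12, adjusted p = 1.96e-12). HO1, the heme oxygenase that opens heme for phytochrome's bilin (the HY1 gene), stood in cotyledons at 101 and 85.8 FPKM in darkness, 83.7 and 85.7 after 1 h, 92.9 and 96.1 after 6 h, then 101 and 150 after 12 h. For hypocotyls, HO1 libraries gave 119 and 107 FPKM in darkness, 114 and 118 after 1 h, 104 and 109 after 6 h, then 111 and 127 after 12 h. Hypocotyl pairs in light were at 104 to 127 FPKM at these 3 times, against 119 and 107 in darkness, and changes at 12 h were 0.40 in cotyledons and 0.07 in hypocotyls. Loci of these genes are AT5G26030 for FC1, AT2G30390 for FC2, AT2G26670 for HO1, AT2G26550 for HO2 and AT3G09150 for HY2.

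HO2, a minor form of the family, stood in cotyledons at 21 and 26.7 FPKM in darkness, 23.8 and 28.2 after 1 h, 49.1 and 51.3 after 6 h, then 44.1 and 57.9 after 12 h. Hypocotyl HO2 pairs were at 8.07 and 8.71 FPKM in darkness, 10.3 and 10.2 after 1 h, 13 and 12.3 after 6 h, then 13.2 and 13.8 after 12 h. Cotyledon pairs at 6 h and 12 h lay above darkness, and the hypocotyl pairs did too, by less than the limit. HO2 was called in cotyledons at 6 h (log2 change 1.05, SE 0.14, adjusted p = 1.82e-06) and 12 h (log2 change 1.06, SE 0.14, adjusted p = 1.98e-06), and these values were 0.88 and 0.89 without dark replicate A, 0.92 and 0.93 under quantile normalization and 0.49 and 0.50 with nuclear genes rescaled, and the second was 0.87 without replicate B at 12 h. HY2, phytochromobilin synthase, was the lowest member in hypocotyls, at 0.955 ± 0.111 FPKM in darkness and 4.9 ± 0.577 at 12 h (log2 change 1.59, SE 0.17, adjusted p = 4.63e-08), and with a pseudocount of 5 FPKM this change was 0.73. In cotyledons it was at 20.4 ± 4.75 in darkness and 11.9 ± 1.81 at 3 h (-0.72, not called; -1.11 and called lower with nuclear genes rescaled). AT3G09160, on the other strand, shares 3.09% of HY2's stretches and was at 27.3 to 66.5 FPKM in cotyledons, above HY2.

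**Figure D3:**
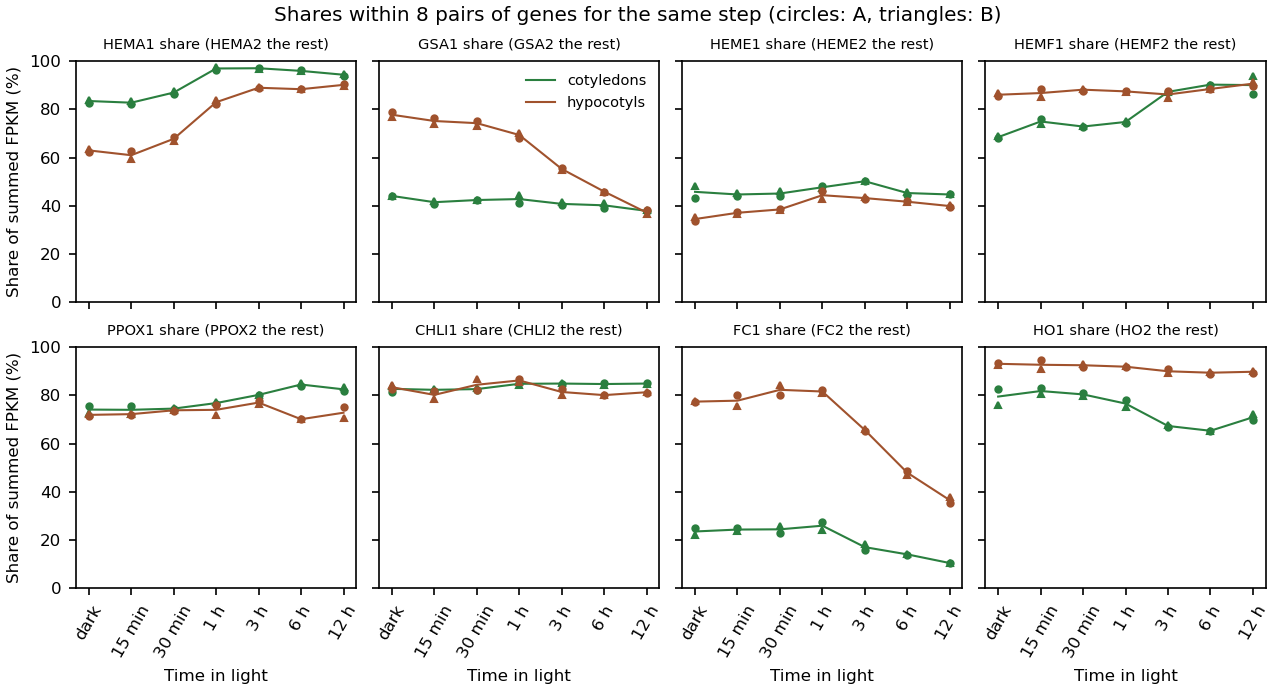
Share (%) of the summed FPKM of 8 gene pairs that is taken by the named gene, in every library against time in light, with circles for replicate A, triangles for replicate B and lines through means. The share of GSA1 goes from 77.8% to 37.2% and that of FC1 from 77.4% to 36.5% in hypocotyls, while CHLI1 is at 82.7% and 84.9% in cotyledons in darkness and at 12 h.

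Where a step has a pair of genes, the share of the transcript per length that each supplied shifted over the hours of light. These shares are given as descriptions and were not tested. HEMA1 made up 82.8% and 84.1% of the HEMA pair in cotyledon replicates A and B in darkness and 93.9% and 94.9% at 12 h. In hypocotyls it went from 62.3% and 63.7% to 90.7% and 89.7%. GSA1 was the larger of its pair in dark hypocotyls, at 79% and 76.7%, and the smaller at 12 h, at 38.1% and 36.4%, while in cotyledons it went from 44% and 44.2% to 37.7% and 38.1%. At 12 h both tissues thus had nearly the same GSA1 share, 37.9% and 37.2%. The share of FC1 was 77.2% and 77.5% in dark hypocotyls and 35.2% and 37.8% at 12 h, and 24.9% and 22.2% and 10.5% and 10.3% in cotyledons. HEMF1 went from 68% and 68.9% to 86.4% and 93.7% of its pair in cotyledons, where HEMF2 fell, and from 85.4% and 86.9% to 89.8% and 91.5% in hypocotyls. HO1 went from 82.8% and 76.2% to 69.6% and 72.2% in cotyledons. Dark and 12 h pairs did not overlap in these cases, and of the 16 pairs and tissues the shares of HEME1 in cotyledons and PPOX1 in hypocotyls did overlap. CHLI1 moved by 2.24 and -2.18 percentage points in cotyledons and hypocotyls.

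In darkness transcripts of the pathway were far more abundant in cotyledons than in hypocotyls. Of 31 members, 28 were called lower in hypocotyls (21.2% of all genes were) and 1 higher, FC1 (23.4%). The ratio of cotyledon to hypocotyl FPKM had a median of 7.63 over the members and a range of 0.428 (FC1) to 50.1 (GUN4), against a median of 1 over all genes tested. CHLP (1324 and 31.3 FPKM; log2 change -5.34, SE 0.15, adjusted p = 2.45e-17) and GUN4 (142 and 2.84 FPKM; log2 change -5.21, SE 0.12, adjusted p = 3.61e-18) were the furthest apart on the log2(FPKM + 1) scale. HO1 did not pass the test (0.27, adjusted p = 0.0841). FC1 (10.3 ± 0.0403 and 24.1 ± 0.492 FPKM; log2 change 1.15, SE 0.10, adjusted p = 3.20e-09) was not called with nuclear genes rescaled. After 12 h the median ratio was 3.64 (0.751 to 6.08), 28 members were called lower in hypocotyls (18.4% of all genes) and 0 higher by limma (16.8% of all genes), with 1 higher by p alone, adjusted or not (FC1, 0.40). Under quantile normalization 27 were called lower at 12 h. With nuclear genes rescaled, which moved the median of all genes by 0.40, 24 were. The median ratio had been 8.63 at 1 h and 4.27 at 3 h. For some members far apart in darkness the ratio came down earlier. It went from 50.1 to 11.1 at 1 h for GUN4, from 42.2 to 14.4 for CHLP and from 35.4 to 9.25 for CRD1. For CHLG it went from 33.1 to 15.9 and for CHLH from 21.1 to 6.45. Others far apart had come down less at 1 h, with DVR going from 22.6 to 17.5 and HY2 from 21.4 to 19.4.

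**Figure D4:**
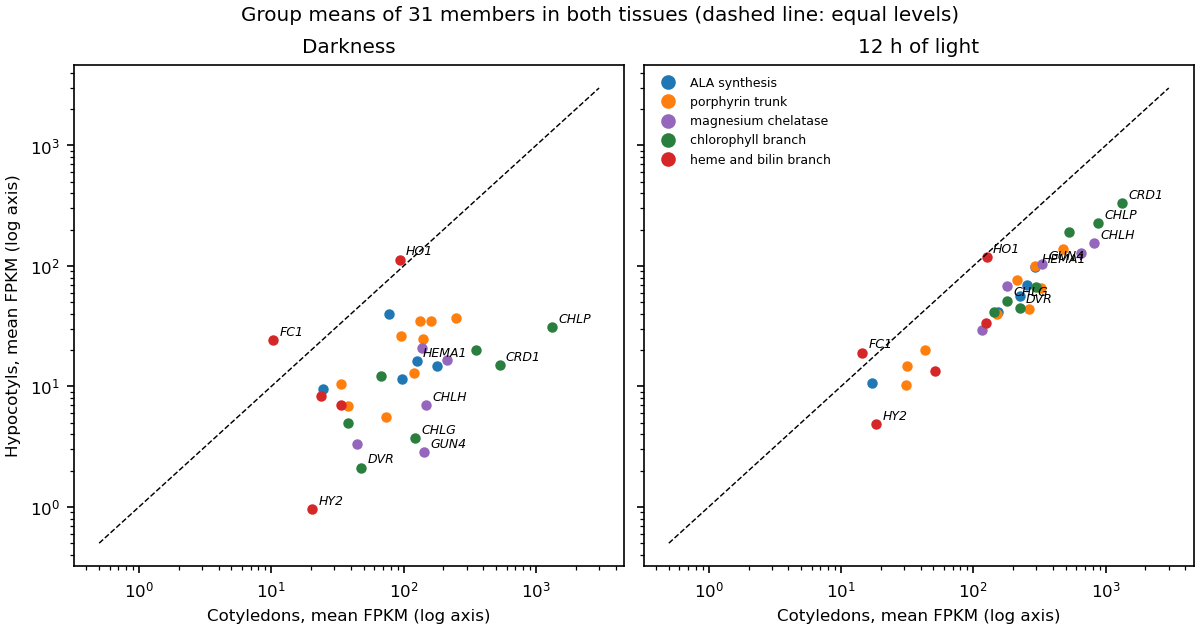
Mean FPKM of each member in hypocotyls against cotyledons (log axes, n = 2 libraries a group), in darkness and after 12 h of light, coloured by role group, with a dashed line of equal levels. In darkness the ratio of cotyledons to hypocotyls spans 0.428 to 50.1, and at 12 h the points have closed up to 0.751 to 6.08.

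The difference between the tissues in the response was tested itself. With the limit on size, the hypocotyl change minus the cotyledon change was above 0 in every call. The number of members with a called difference above 0 was 0 at 15 min (0 also by the other scalings, with 3 at an unadjusted p under 0.05 and 0.230% of all genes called), 3 at 30 min (1.15% of all genes), 4 at 1 h (4.86%), 10 at 3 h (15.5%), 10 at 6 h (17.8%) and 16 at 12 h (16.5%). A called difference the other way was found for 0 members by limma at each time (of all genes 0.273%, 1.26%, 5.04%, 13.5%, 19.1% and 17.3%). By adjusted p alone, without the limit on size, 2 members differed the other way at 1 h, 3 at 6 h and 2 at 12 h. At an unadjusted p under 0.05 there were 2, 3 and 3 at these times. GSA1 had the lowest value at 6 h, -0.98, and was at -0.92 at 12 h. Without cotyledon dark replicate B the GSA1 values were -1.09 and -1.03, and without cotyledon replicate A at 12 h the second was -1.26. Without cotyledon dark replicate B the count at 30 min was 1. The largest differences at 6 h were in GUN4 (difference 3.05, SE 0.17, adjusted p = 1.11e-11), CRD1 (difference 2.64, SE 0.17, adjusted p = 4.64e-11), CHLP (difference 2.53, SE 0.21, adjusted p = 2.45e-09) and CHLG (difference 2.49, SE 0.23, adjusted p = 1.44e-08). HEMF2 (2.09) was called lower in cotyledons and had a change of 0.64 in hypocotyls. With nuclear genes rescaled, which moves the median difference of all genes by 0.41, 0.65 and 0.62 at 3 h, 6 h and 12 h, the counts were 17, 23 and 23, and relative to that median the median member stood at 0.62, 0.82 and 1.32 against 0.55, 0.71 and 1.22 as deposited.

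Markers of lateral organs in the hypocotyl libraries moved with time. The summed level of FIL and YAB3 in hypocotyl replicates A and B was 0.0387% and 0.171% of the cotyledon mean in darkness, 0.757% and 1.21% at 6 h and 2.75% and 0.92% at 12 h. The members' hypocotyl means were a median of 13.1% of their cotyledon means in darkness (lowest 2%, GUN4), 22.3% at 6 h (lowest 10.5%, DVR) and 27.5% at 12 h (lowest 16.5%, HEME1). The whole list of 3 genes, with AS1, summed to 20.1 to 50.4 FPKM in hypocotyls (median 33.1) and 200 to 347 in cotyledons (median 231), and no hypocotyl library had AS1 at 0. The part of cotyledon RNA in the hypocotyl values was not tested.

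From 1 h to 3 h, 12 members were called higher in hypocotyls (7.23% of all genes were), among them CHLG (log2 change 1.52, SE 0.17, adjusted p = 2.65e-07) and DVR (1.46). Some of them had not risen by 1 h, such as HEME2 (0.849-fold of darkness) and CHLD (0.746-fold). Called lower over that step were 0 members (4.31% of all genes). In cotyledons 0 members were called higher over that step by limma (14 at an unadjusted p under 0.05; 5.47% of all genes) and HEMF2 was called lower (4.79% of all genes; log2 change -1.15, SE 0.16, adjusted p = 6.16e-06). Without cotyledon replicate B at 1 h, 2 members were called in cotyledons over that step in place of 1. From 6 h to 12 h, 0 hypocotyl members were called by limma and under the other scalings (13 at an unadjusted p under 0.05; 1.75% of all genes were called higher and 1.55% lower), with NYC1 (0.85) and DVR (0.83) highest and FC1 (-0.57) lowest. In cotyledons NYC1 was called over that step (log2 change 1.12, SE 0.14, adjusted p = 1.58e-05; 2.32% of all genes were, and 1.31% were called lower), a call lost without replicate B at 12 h and under quantile normalization. The highest mean fell at 6 h for 15 members in cotyledons and at 12 h for 23 in hypocotyls. Whether these time courses differ between tissues in timing was not tested beyond the differences given above.

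Another 20 genes of tetrapyrrole metabolism were listed beside the members, with earlier results of these data known, and 16 of them passed the filter. In cotyledons at 6 h 4 were called higher (16.9% of all genes were) and 4 lower (11%). In hypocotyls at 12 h 9 were called higher (16.6% of all genes were) and 1 lower (14.2%). Among them PORC, the reductase form of green tissue, rose from 60.8 ± 11 to 244 ± 7.38 FPKM in cotyledons (log2 change 2.00, SE 0.16, adjusted p = 1.60e-09) and from 2.55 ± 0.0742 to 55.2 ± 2.96 in hypocotyls (3.98). PORA, the form of dark-grown seedlings, fell in hypocotyls too, from 10.6 ± 2.19 to 0.0615 ± 0.0368 FPKM (log2 change -3.43, SE 0.20, adjusted p = 1.24e-11). LIL3.2, which anchors the geranylgeranyl reductase encoded by CHLP, fell in cotyledons from 1796 ± 446 to 397 ± 14.9 FPKM (log2 change -2.15, SE 0.15, adjusted p = 1.97e-10) and rose in hypocotyls from 25.7 ± 3.32 to 267 ± 10.9 at 12 h (log2 change 3.33, SE 0.15, adjusted p = 1.01e-13). UPM1, which leads uroporphyrinogen III toward siroheme, was called higher in cotyledons at 3 h, with 707 and 479 FPKM against 56.6 and 89.9 in darkness (log2 change 3.01, SE 0.17, adjusted p = 7.39e-12), and stood at 111 and 112 at 6 h.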

How the data were processed

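The 28 libraries are poly(A) RNA of 14 groups. Per the submitters' processing notes, which give tools without their roles, CASAVA 1.8.2, TopHat2 2.0.8, Cuffdiff 2.1.1 and Cuffnorm were used with the build TAIR10. The deposited FPKM values are named as Cuffnorm output, and the deposited q-values as Cuffdiff output. The strand setting of the counting is not stated there, so 12 members that overlap a gene on the other strand and 4 that overlap one on the same strand are uncertain to that extent. Of the authors' second table, which holds 29764 genes and all 31 members, the mean FPKM and the q-value columns were used as an alternative.

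The deposited FPKM were transformed to log2(FPKM + 1), genes with a mean under 1 FPKM were left out, and a mean for each of 14 groups entered a limma 3.58.1 fit under R 4.3.3 (eBayes with trend and robust, 14 residual degrees of freedom). Fold changes on the log2 scale understate changes of low genes because of the pseudocount of 1, whereas folds in the text are ratios of mean FPKM. In all, 24 contrasts were tested, and p-values were adjusted by Benjamini-Hochberg within each over 18678 genes. The replicates are labelled biological, and the spread is estimated over all groups. Read counts were not analysed here. Among 1731 low genes, 95.7% of 8885 values lay within 0.1 of a whole number of reads (20% if spread evenly), and depth was taken from these steps.

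Annotation and sequences come from RefSeq TAIR10.1, to which all 31 members and 32802 genes matched. Other steps used Python 3.11.15 with numpy 2.4.6 and pandas 2.3.3, and figures matplotlib 3.10.9. The fit was tested on simulated data of 18678 genes: for cotyledons at 6 h it recovered 68 of 73 genes with an added change of 1.5 and 67 of 69 with 2, and for hypocotyls at 12 h 68 of 72 and 62 of 62, with 0 false calls. The simulated noise was normal and independent, with no shift in scaling between libraries. Changes were added only to genes above 2 on the log2(FPKM + 1) scale in darkness. The check therefore does not cover scaling, changes near the limit of 1 or low genes. The members, the other lists and the motifs were chosen with earlier results of these data known. Values of every library are given for HEMA1, CHLH, GUN4, FLU, HO1 and FC1, for the 4 highest and 4 lowest changes called in cotyledons at 6 h or hypocotyls at 12 h, and for the 4 largest tissue differences at 6 h; CAO and CHLH at 15 min and 30 min and HEMF2 and UPM1 at 3 h were added after their values were seen.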

Additional observations from a re-analysis of the deposited data

Results flagged for a closer look

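In 43 cases, over 17 members and 5 times, the change in hypocotyls differed from the change in cotyledons by the test of the difference itself (limma, adjusted p under 0.05 and a difference of at least 1), and in all 43 the hypocotyl change minus the cotyledon change was above 0. For HEMF2 at 3 h, 6 h and 12 h this came with a called fall in cotyledons and no called change in hypocotyls, and for HY2 at 3 h with changes of -0.72 in cotyledons and 0.56 in hypocotyls, neither called. By adjusted p alone, without the limit on size, 2 members at 1 h, 3 at 6 h and 2 at 12 h differed the other way. Values are hypocotyl change minus cotyledon change on the log2(FPKM + 1) scale.

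For FLU the difference was 1.07 at 6 h and 1.56 at 12 h. HEMD differed by 1.11 at 3 h, 1.42 at 6 h and 1.28 at 12 h. In HEMF2 it was 1.83 at 3 h, 2.09 at 6 h and 2.04 at 12 h. For CHLH the difference was 1.27 at 30 min, 1.53 at 1 h, 2.40 at 3 h, 1.83 at 6 h and 1.84 at 12 h. GUN4 differed by 1.10 at 30 min, 1.76 at 1 h, 2.99 at 3 h, 3.05 at 6 h and 3.52 at 12 h. In CHLM it was 1.30 at 3 h, 1.8 at 6 h and 2.64 at 12 h. For CRD1 the difference was 1.07 at 30 min, 1.85 at 1 h, 2.72 at 3 h, 2.64 at 6 h and 3.07 at 12 h. CHLG differed by 2.23 at 3 h, 2.49 at 6 h and 2.95 at 12 h. In CHLP it was 1.51 at 1 h, 2.84 at 3 h, 2.53 at 6 h and 3.44 at 12 h. For HY2 the difference was 1.28 at 3 h, 1.45 at 6 h and 1.73 at 12 h. At 3 h alone it was called for CAO (1.18). At 12 h alone it was called for HEMA1 (1.32), GSA2 (1.17), CHLI1 (1.26), CHLI2 (1.47), CHLD (1.32) and DVR (1.72). Calls that were lost without 1 library were those of GUN4 at 30 min (0.87 without cotyledon dark replicate B), CRD1 at 30 min (0.95 without that library and 0.98 without cotyledon replicate A at 30 min), HEMD at 3 h (0.99 without hypocotyl replicate A), FLU at 6 h (0.99 without cotyledon dark replicate B), and GSA2, CHLI1 and CHLD at 12 h (0.84, 0.97 and 0.98 without cotyledon replicate A at 12 h). With a pseudocount of 5 FPKM the differences of CHLH, GUN4 and CRD1 at 30 min were 0.83, 0.47 and 0.88, that of GUN4 at 1 h 0.86, and those of HEMD and CAO at 3 h 0.86 and 0.64, all under the limit. The same held for FLU at 6 h (0.87), for HY2 at 3 h, 6 h and 12 h (0.79, 0.69 and 0.85), and at 12 h for GSA2 (0.89), HEMD (0.95), CHLI2 (0.77) and DVR (0.73).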

How the results depend on the processing

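No direction of a call of a single member was reversed under any alternative tried (558 values of light against darkness and of the tissue difference, 168 of them called). Quantile normalization gave 8 members called in cotyledons at 6 h and 8 at 12 h, 0 for 12 h against 6 h in cotyledons, and 1 and 18 for the tissue difference at 30 min and 6 h. With nuclear genes rescaled to the same sum these counts were 10 and 9 in cotyledons at 6 h and 12 h, and 17 and 23 for the tissue difference at 3 h and 6 h. A pseudocount of 5 FPKM, which lowers changes of low genes by construction, lost 27 calls of single members and gave 0, 3, 7, 8 and 11 tissue differences from 30 min to 12 h, and a pseudocount of 0.1 FPKM made 8 further calls of single members. Adjusted p alone, without the limit on size, gave 1, 6, 13, 23, 26 and 27 members in cotyledons from 15 min to 12 h, 5, 8, 15 and 26 in hypocotyls from 15 min to 3 h, 16 and 27 for 3 h against 1 h, 9 and 11 for 12 h against 6 h (cotyledons, then hypocotyls), and 5, 9, 17, 24 and 25 tissue differences from 30 min to 12 h. Other filters (none, or a mean of 5 FPKM) and plain eBayes changed whether a value was called or not in 0 of 558 cases. The authors' deposited table left 370 cases the same and moved 2 past the limit. The cause of the other shifts was not tested.

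Leaving out 1 library of a comparison moved its count over these ranges: 6 to 8 (cotyledons, 1 h against darkness), 10 to 12 (cotyledons, 3 h against darkness), 14 to 18 (cotyledons, 6 h against darkness), 10 to 18 (cotyledons, 12 h against darkness), 8 to 9 (hypocotyls, 1 h against darkness), 15 to 16 (hypocotyls, 3 h against darkness), 21 to 22 (hypocotyls, 6 h against darkness), 1 to 2 (cotyledons, 3 h against 1 h), 0 to 1 (cotyledons, 12 h against 6 h), 11 to 13 (hypocotyls, 3 h against 1 h), 1 to 3 (difference between tissues, 30 min), 4 to 5 (difference between tissues, 1 h), 9 to 11 (difference between tissues, 3 h), 10 to 12 (difference between tissues, 6 h), 14 to 18 (difference between tissues, 12 h), 29 to 30 (hypocotyls against cotyledons, dark), 26 to 28 (hypocotyls against cotyledons, 12 h). The lone library left in a group is then assumed to vary like the other groups. The letters A and B do not pair samples by the labels or the data (3 of 91 pairs of groups had a correlation of deviations over 0.1, from -0.11 to 0.16). A fit with a replicate block changed whether a value was called or not in 0 of 558 cases. Its counts were, for example, 16 in cotyledons at 6 h and 23 in hypocotyls at 12 h. With 2 libraries a group, changes of low members such as HY2, near 1 FPKM in dark hypocotyls, rest on few reads.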
